A study of Mus musculus with 12 samples.

Results

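The 9 genes described here are Nr3c1, which encodes the glucocorticoid receptor, and 8 genes known to be induced through that receptor: Fkbp5, Tsc22d3, Sgk1, Klf9, Zbtb16, Dusp1, Errfi1 and Cebpd. They were listed as genes of the hormone response, by a rule that uses no measured value but was set with earlier results of these data known, and make up 9 of the 21864 protein-coding genes annotated in mouse (GENCODE release M21, genome build mm10). A BMAL1 peak was given to the gene whose protein-coding start site was nearest to its midpoint. By that rule 123 of the 35822 peaks in 6 lists belonged to these genes, and they merged into 59 of 16818 regions, a region being all peaks of the 6 lists that overlapped by at least 1 bp.

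The peaks came from BMAL1-ChIP-seq of primary mouse adult fibroblasts (MAFs) taken from ear tissue of C57BL/6 mice and grown at 3% O2. Senescent cells had received 20 Gy of X-rays and control cells a sham irradiation, with 3 libraries in each group. Both groups were treated with 100 nM dexamethasone for 2 hours to synchronize their clocks and were collected 12 hours later, so every library came from cells exposed to a glucocorticoid, and the labels list none without it. The comparison asked where BMAL1 was found in senescent and in control cells.

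Dexamethasone binds the glucocorticoid receptor, which moves to the nucleus and binds DNA at paired ACA and TGT sequences separated by a short spacer. The genes it induces include regulators of the receptor itself, inhibitors of growth factor and MAP kinase signaling, and transcription factors. BMAL1, with its partner CLOCK, binds E-boxes and drives the positive limb of the circadian clock, and a short glucocorticoid treatment is widely used to set the phase of that clock in cultured fibroblasts.

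The following sequences lie within 100 bp of the centre of the peaks on which the results turn, or in the case of the Klf9 promoter elsewhere in the peak, and are shown because they hold the E-boxes or glucocorticoid receptor motifs referred to later. All are forward-strand GRCm38 (mm10) sequence, written 5′ to 3′. In the first set the capitals mark E-boxes (CACGTG), and in the second Tsc22d3 sequence they mark the related hexamers CGCGTG and CATGTG.
Tsc22d3 22755 bp downstream, chrX:140520364-140520409: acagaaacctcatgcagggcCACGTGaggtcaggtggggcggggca
Tsc22d3 31931 bp downstream, chrX:140511195-140511252: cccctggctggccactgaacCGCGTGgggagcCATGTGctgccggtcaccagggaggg
Klf9 5424 bp upstream, chr19:23135742-23135893: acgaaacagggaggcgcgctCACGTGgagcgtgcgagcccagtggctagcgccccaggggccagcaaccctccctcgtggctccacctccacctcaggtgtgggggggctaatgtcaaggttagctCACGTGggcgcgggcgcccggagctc
Klf9 4646 bp upstream, chr19:23136587-23136632: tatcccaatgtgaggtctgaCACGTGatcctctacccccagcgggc
Klf9 promoter, chr19:23140883-23140928: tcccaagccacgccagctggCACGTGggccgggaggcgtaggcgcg
Fkbp5 promoter, chr17:28486293-28486338: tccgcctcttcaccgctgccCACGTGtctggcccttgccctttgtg
Dusp1 3911 bp downstream, chr17:26504453-26504498: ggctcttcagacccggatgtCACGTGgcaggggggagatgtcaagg
Sgk1 6078 bp downstream, chr10:22000739-22000784: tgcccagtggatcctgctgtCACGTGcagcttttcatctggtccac

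In the second set the capitals mark glucocorticoid receptor (GR) motifs, either the core ACANNNTGT or the longer element made of GNACA and TGTNC with 3 bases between them. In the Klf9 sequence they also mark a variant E-box (CACGTT, read here from the opposite strand) at the left and an AP-1 site (TGACTCA) at the right. In the Errfi1 sequence the left capitals are an E-box.
Klf9 6109 bp upstream, chr19:23135018-23135161: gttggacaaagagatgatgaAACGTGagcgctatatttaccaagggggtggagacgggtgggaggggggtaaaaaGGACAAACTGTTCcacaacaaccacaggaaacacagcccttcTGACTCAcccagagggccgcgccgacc
Dusp1 1061 bp upstream, chr17:26509467-26509519: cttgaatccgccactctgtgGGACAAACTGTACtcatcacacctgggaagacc
Sgk1 96204 bp upstream, chr10:21785876-21785989: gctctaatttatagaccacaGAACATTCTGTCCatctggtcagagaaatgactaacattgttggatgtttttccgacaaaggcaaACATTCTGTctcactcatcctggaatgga
Errfi1 84666 bp upstream, chr4:150769162-150769230: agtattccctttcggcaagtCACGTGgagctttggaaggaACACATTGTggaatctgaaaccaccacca

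The files were peak lists, so each peak carried a position and a score but no read count, and the sequencing depth behind a list was unknown. The control lists held 2794, 3349 and 10601 peaks and the senescent lists 4220, 9805 and 5053 peaks, and the long lists of the third control and the second senescent library supplied many of the calls made only once. A peak was therefore described by its rank in its own list, 1 being the highest score, and a missing peak was read as not called rather than as absent binding. Promoters were taken as the 1000 bp on either side of a start site. In the whole series 32.1 ± 0.70% of control peaks and 41.7 ± 2.83% of senescent peaks (SD, n = 3) lay in promoters. Between the groups this shift had the same direction as the number of the 9 genes with a promoter peak. Its part in the promoter counts given here was not tested. Peak lists hold no expression values, so the fibroblast label could not be set against marker genes.

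BMAL1 peaks were found at 8 of the 9 genes, against 36.4% of all protein-coding genes with a peak in at least 1 library. Tsc22d3 and Klf9 had a peak in all 6 libraries, where 5.14% of all genes did. Zbtb16, which encodes the zinc finger transcription repressor PLZF and lies at chr9:48654297-48836222, had no peak in any list. In the control libraries 2, 5 and 7 of the 9 genes had a peak, and in the senescent libraries 6, 8 and 8 did. The groups overlapped through the third control library, whose list was the longest. Over all genes, the share with a peak was 9.32%, 10.8% and 25.3% in the control and 14.4%, 26.5% and 16.6% in the senescent libraries.

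**Figure D1:**
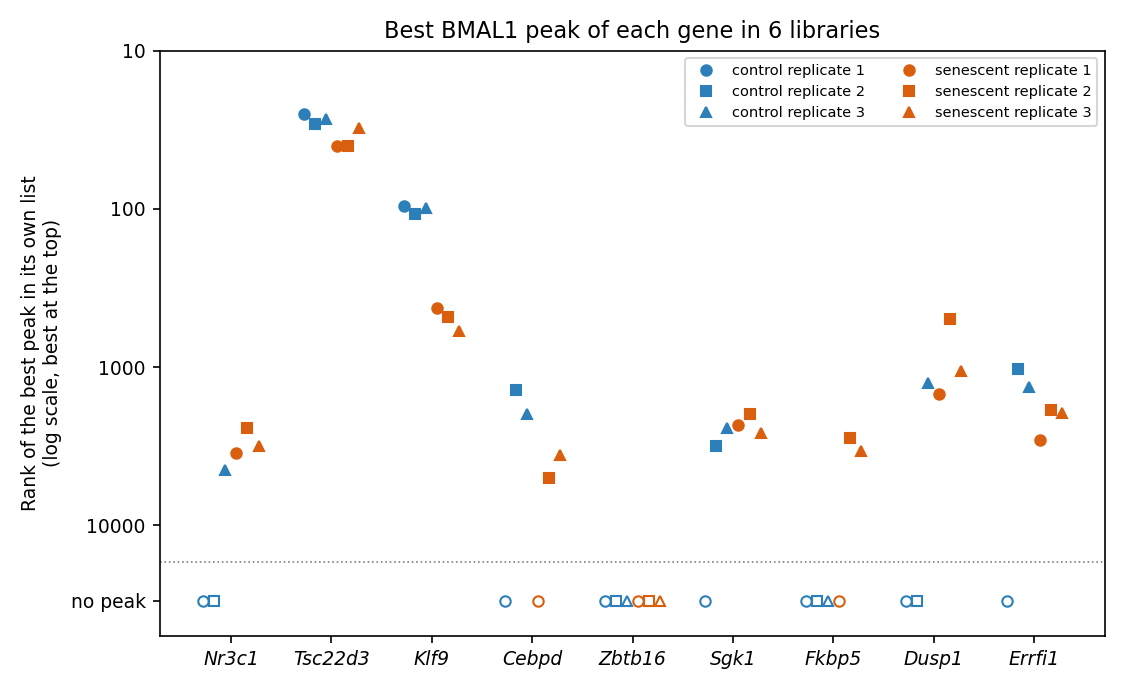
Rank of the best BMAL1 peak of each gene in its own list (y axis, log scale, best at the top) in the 3 control (blue) and 3 senescent (orange) libraries, with open symbols for libraries in which no peak was called. Tsc22d3 sits between ranks 25 and 40 in every library, Klf9 between 96 and 108 in control and between 423 and 593 in senescent libraries, and Zbtb16 has no peak.

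The number of peaks at the 9 genes was 7, 10 and 34 in control and 17, 37 and 18 in senescent libraries, or 17 ± 14.8 against 24 ± 11.3 (SD, n = 3), and the groups overlapped. Per 1000 peaks of the list the counts were 2.51, 2.99 and 3.21 in control and 4.03, 3.77 and 3.56 in senescent libraries. Those values did not overlap, and senescent exceeded control libraries by 0.889. With lists cut to the same length the groups overlapped, at means of 2.86 and 3.70. The order turned, to a difference of -0.415, when peaks scoring at or under their list's median were dropped. Klf9 held 32 of the 123 peaks, Errfi1 24, Sgk1 20, Dusp1 16, Tsc22d3 13, Cebpd 9, Nr3c1 7 and Fkbp5 2.

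**Figure D2:**
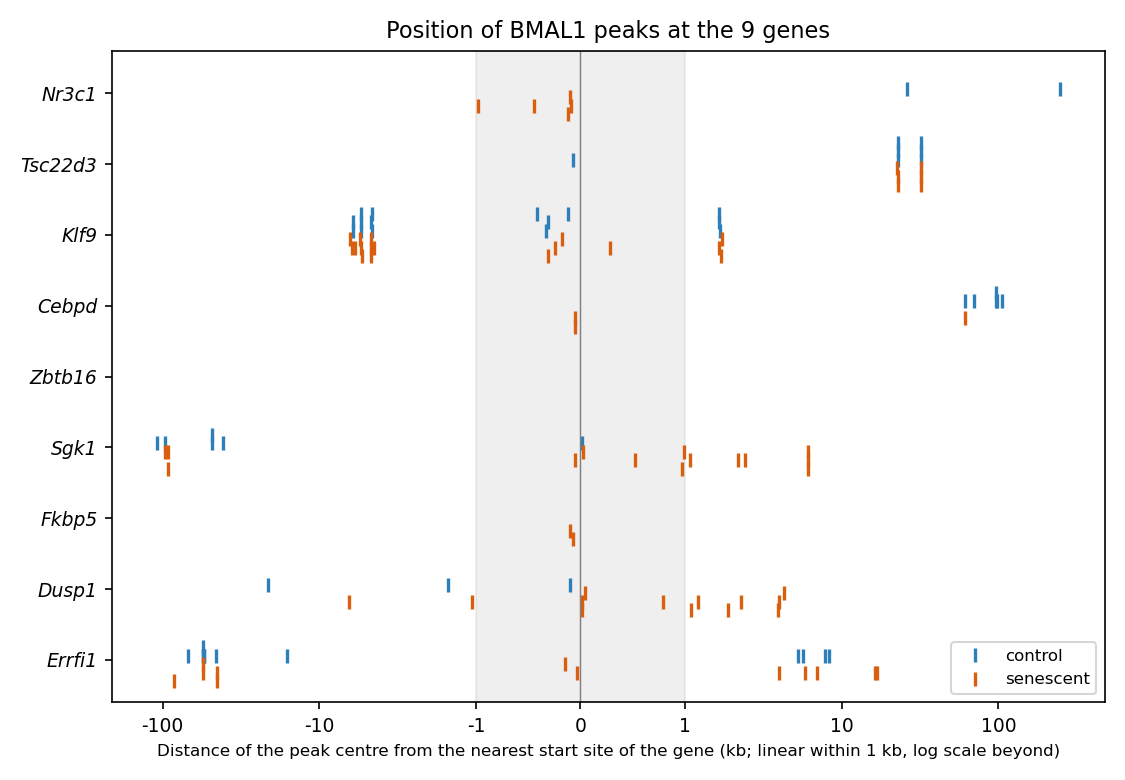
Distance of each BMAL1 peak centre from the nearest start site of its gene (x axis, kb, linear within 1 kb and log scale beyond, negative upstream), with 1 row of ticks per library, control in blue and senescent in orange and the promoter shaded. Peaks of Tsc22d3 and Klf9 line up over the 6 libraries, whereas the promoter ticks of Nr3c1, Fkbp5, Cebpd and Errfi1 are all senescent.

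Of the 59 regions, 6 were called in all 6 libraries, which is 10.2% against 6.58% of all regions. A region was counted as senescent-only where at least 2 senescent and 0 control libraries had it. By that rule 9 regions were senescent-only, which is 15.3% against 9.44% of all regions, and 1 was left when peaks scoring at or under their list's median were dropped. Without the second or the third senescent library 4 were left, and without the third control library there were 12. The reverse rule gave 2 control-only regions, 3.39% against 5.86% of all, and 0 without the second or the third control library. A further 34 regions were called in a single library, 18 of them in the third control and 13 in the second senescent library, which gives 57.6% against 55.7% of all regions.

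Promoters of the receptor gene and of most of the induced genes were called in more senescent than control libraries. This held for 6 of the 9 genes, and 1 had more control calls. Over all protein-coding genes, 4742 had a promoter peak in at least 1 library. Of these, 2552 had more senescent and 930 more control calls. A promoter peak was found at 1, 1 and 4 of the 9 genes in control and at 5, 7 and 6 in senescent libraries, or 2 ± 1.73 against 6 ± 1 genes (SD, n = 3), without overlap. Over all genes, the same shares were 3.72%, 4.52% and 12.9% in control and 7.15%, 16.7% and 8.38% in senescent libraries, and these overlapped. The third control list was longer than the second senescent list, with 10601 against 9805 peaks, and held promoter peaks at 4 against 7 of the genes. Over all genes the shares in the same libraries were 12.9% and 16.7%, and the part of list length in these counts was not tested. The difference of 4 genes shrank to 1.67, with overlapping groups, when peaks scoring at or under their list's median were dropped, and to 2, without overlap, with lists cut to the same length. With start sites of every gene type the difference was 3.67 and the groups overlapped. Nr3c1, Fkbp5, Cebpd and Errfi1 had a promoter peak in at least 2 senescent and 0 control libraries, which is 4 of 9 genes where 2.12% of all genes did so. Counting only genes with a promoter peak in any library, this was 4 of 8 against 464 of 4742. Most of these calls stood low in their lists. Percentiles of the own list, counted from the best score, were 28.7 and 67.1 at Fkbp5, 51.6 and 71.0 at Cebpd and 68.8 and 74.8 at Errfi1. Each of the 4 genes had a promoter peak scoring over its list's median in at most 1 senescent library. None of the 9 had a promoter peak in at least 2 control and 0 senescent libraries, against 0.361% of all genes. Promoters made up 12 of the 59 regions, and 10 of those 12 were called in more senescent than control libraries, against 55.2% of all promoter regions. Only 1 of the 12 was called in more control libraries, against 22.2% of all promoter regions. The promoter regions 443 and 981 bp upstream at Nr3c1, 522 bp downstream at Sgk1 and 788 bp downstream at Dusp1 were called in the second senescent library alone. Of the 47 regions outside promoters, 18 were called in more senescent libraries, 19 in more control libraries and 10 in equal numbers. Among all such regions, 39.5% were called in more senescent and 48.2% in more control libraries. Most of the 18 were called in a single senescent library. Apart from the 2 control-only regions, at Cebpd and Sgk1, the 19 were called in the third control library alone, whose list was the longest.

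**Figure D3:**
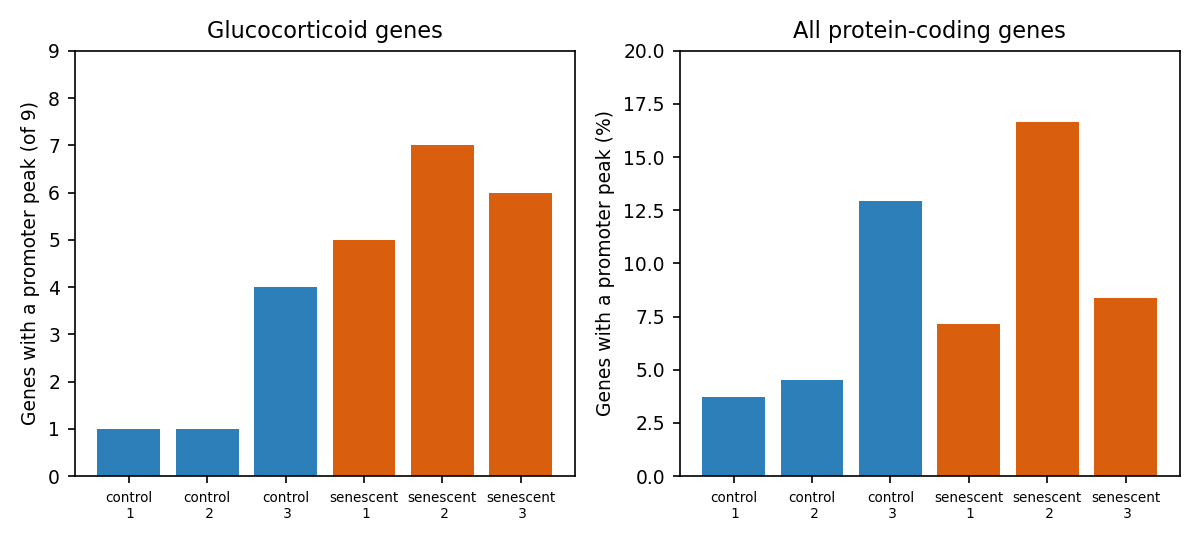
Number of the 9 glucocorticoid genes (left, of 9) and percent of all 21864 protein-coding genes (right) with a BMAL1 peak within 1000 bp of a start site, 1 bar per library, control in blue and senescent in orange. The 3 senescent libraries hold 5 to 7 of the 9 genes and the control libraries 1 to 4, while over all genes the groups overlap.

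Nr3c1 encodes the receptor that dexamethasone binds and lies on the reverse strand of chr18. Its promoter region, with the best-scoring peak 115 bp upstream of a start site and in an intron of longer transcripts, was called in all 3 senescent libraries, at ranks 3472.5, 7377.5 and 3161.5, and in no control library. These peaks stood low in their lists, at percentiles 82.3, 75.2 and 62.6 counted from the best score. The second senescent library had 2 more promoter peaks, 443 and 981 bp upstream, the latter at rank 2430.5. The third control library alone had peaks 26222 bp downstream in an Nr3c1 intron, at rank 4483, and 246089 bp downstream in an intron of Arhgap26, at rank 8448.

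Fkbp5 encodes a co-chaperone that sits on the receptor complex and lowers its affinity for hormone, which closes a short negative feedback loop. It had 1 region, 102 bp upstream of one of its 5 start sites at chr17:28486134-28486351, with rank 2814 in the second and 3391 in the third senescent library. No control library and not the first senescent library had a peak there. The region holds the printed E-box, 64 bp from the peak centre.

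Tsc22d3 encodes GILZ, a leucine zipper protein that mediates anti-inflammatory actions of glucocorticoids. It held the best-ranked regions of the 9 genes, both beyond its 3′ end, which lies at chrX:140539528 on the reverse strand. The region 22755 bp downstream of the nearest start site (chrX:140519852-140520988) had ranks 25, 29 and 27 in control and 42, 40 and 50.5 in senescent libraries. All 3 control ranks were better than all 3 senescent ranks, with geometric means of 27.0 and 43.9. The ratio of 1.63 had p = 0.1 in an exact two-sided permutation test over the 20 arrangements of 3 against 3 libraries, which is the smallest p that this design can give. Adjusted by Benjamini-Hochberg over the 1106 regions called in all 6 libraries, p was 0.278. On the percentile of the own list the groups overlapped, at means of 0.672 in control and 0.801 in senescent libraries.

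The second Tsc22d3 region, 31931 bp downstream (chrX:140510792-140511691), had ranks 43, 31 and 32 in control and 40, 42 and 31 in senescent libraries. The groups overlapped, with a ratio of 1.07 (exact permutation p = 1), and on the percentile of the own list the sign turned. By mean log rank these regions were placed 29 and 31 of the 1106. The first holds 1 E-box 46 bp from the peak centre. The second holds no CACGTG, and the printed CGCGTG and CATGTG with 6 bases between them were looked for after its values were seen. A pair drawn from these hexamers and the E-box, spaced by 6 or 7 bases, occurred in the central 200 bp of 1.25% of all regions and of 4.43% of those called in all 6 libraries. The promoter of Tsc22d3 had a peak in the third control library alone, at rank 5434.5.

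The genes whose best region came closest in rank to the Tsc22d3 region at 22755 bp, among 984 genes with a region called in all 6 libraries, were Kdm6b, Actbl2 and Adh5. The mean absolute differences in log10 rank over the 6 libraries were 0.0867, 0.107 and 0.109. The Kdm6b region had ranks 39, 30 and 26 in control and 56, 29 and 47 in senescent libraries.

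Klf9 encodes a Krüppel-like transcription factor and lies on the forward strand at chr19:23141226-23168134. Its 5 regions lay between 6109 bp upstream and 1727 bp downstream of its single start site, and 4 of them were called in all 6 libraries. The region 5424 bp upstream (chr19:23135280-23136214, intergenic) had ranks 96, 108 and 98.5 in control and 859, 759 and 606.5 in senescent libraries. The groups were far apart and did not overlap, with geometric means of 101 and 734. The senescent rank was 7.29 times as large, with p = 0.1 in the exact permutation test, the smallest possible, and an adjusted p of 0.278 in the same exact test. Of the 1106 regions called in all 6 libraries, 16 had a ratio at least this large. The scores, which also depend on depth, were 42.3, 36.6 and 64.3 in control and 17.9, 24.4 and 23.1 in senescent libraries. This region holds 2 E-boxes, 38 and 68 bp from the centre of its best peak, and 100 bases lie between them.

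The Klf9 promoter region went the other way in order, although its groups overlapped. Its ranks were 1398, 465.5 and 4417 in control and 423, 482 and 593 in senescent libraries. The ratio of senescent to control rank was 0.348 (exact permutation p = 0.3, adjusted 0.514). The region runs from chr19:23140490 to 23141588, and its E-boxes lie at -321 and 232 bp from the start site, neither within 100 bp of the peak centre. The Klf9 intron region, 1727 bp downstream, had ranks 1254.5, 2917.5 and 3935.5 in control and 1084.5, 1728.5 and 1092 in senescent libraries. These groups also overlapped, with a ratio of 0.522 (exact permutation p = 0.2, adjusted 0.401). On the percentile of the own list, which takes list length into account, both the promoter region and the intron region had lower percentiles, and so better places, in every senescent library, with means of 8.89 against 35.2 and 21.6 against 56.4. The region 4646 bp upstream had ranks 1050, 780 and 5754.5 in control and 2310, 8330 and 2499.5 in senescent libraries, which overlapped (ratio 2.17, exact permutation p = 0.4).

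The remaining Klf9 region, 6109 bp upstream in an intron of the non-coding gene 2410080I02Rik, was called in 2 control and 2 senescent libraries. Control ranks were 1676.5 and 9740, and senescent ranks were 3752.5 and 2474.5. Its central 200 bp hold a glucocorticoid receptor element 18 bp from the peak centre, together with a variant E-box and an AP-1 site.

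**Figure D4:**
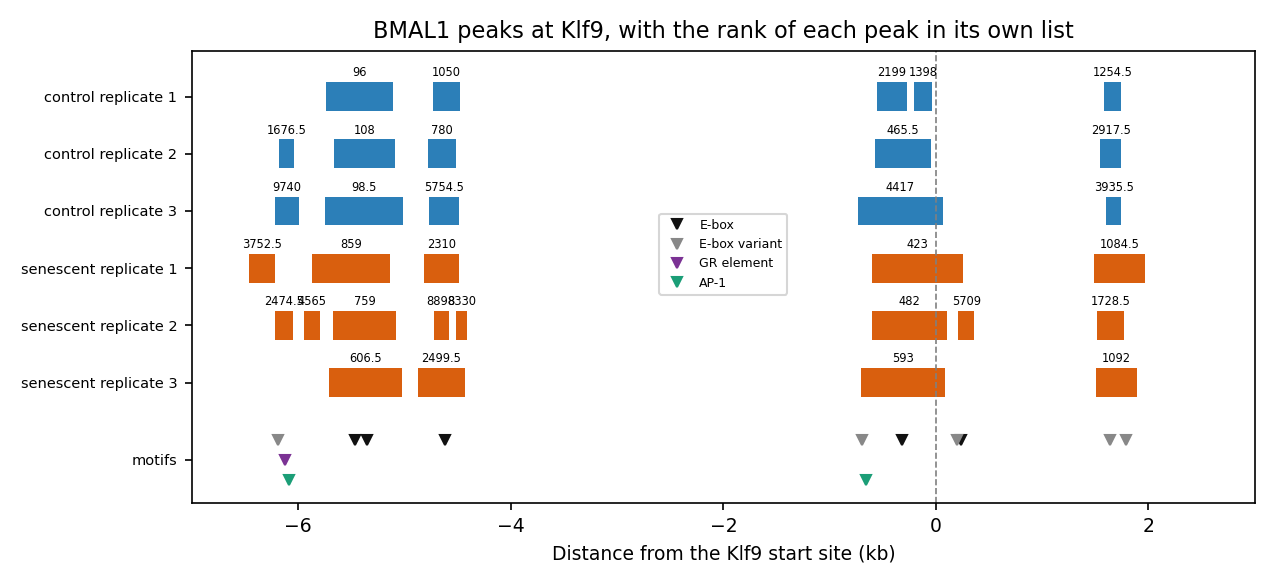
BMAL1 peaks at Klf9 by library (rows) against distance from the start site (x axis, kb), drawn to their length, with each peak's rank in its own list printed over it, control in blue and senescent in orange. Triangles in the bottom rows mark E-boxes, variant E-boxes, glucocorticoid receptor (GR) elements and AP-1 sites. The best peak of the region 5424 bp upstream has ranks near 100 in control and 606.5 to 859 in senescent libraries.

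Among all 1106 regions called in all 6 libraries, 17.6% had a better rank in every senescent than in every control library and 18.4% the reverse. Of the 6 such regions at the glucocorticoid genes, 0 had the first order and 2 the second, those of Tsc22d3 at 22755 bp and Klf9 at 5424 bp. Both lie outside promoters. Of all 615 such regions outside promoters, 96 had the first order and 153 the second. Of the 491 in promoters, 99 had the first order and 50 the second. The exact test called 0 of the 1106 regions at an adjusted p below 0.05, and 398 had the smallest p, which is 0.1, so 0 regions could have an unadjusted p below 0.05.

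Cebpd encodes the transcription factor C/EBP delta and lies at chr16:15887286-15891031. Its promoter region was called in the second and the third senescent libraries, at ranks 5059.5 and 3588, and in no control library. Its other regions lay far downstream in introns of Spidr. The one 97327 bp away was control-only, with ranks 1405.5 and 1990.5 in the second and the third control libraries, and holds a GR core 29 bp from the peak centre. The region 61012 bp away was called in 1 library of each group.

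Sgk1 encodes a kinase that controls ion channels and cell survival, and has 5 annotated protein-coding start sites. Its regions close to the start site of the shorter transcripts were called mainly in senescent libraries. The region 1085 bp downstream, in an intron, had ranks 3036, 1996.5 and 5045.5 in the senescent libraries and holds an AP-1 site. Its percentiles, counted from the best score, were 71.9, 20.4 and 99.9, so the third call stood at the end of its list. The region 6078 bp downstream (chr10:22000572-22000983), past the end of the gene, had ranks 4193.5, 2742.5 and 2603.5 in the senescent libraries and holds the printed E-box 17 bp from its centre. Its percentiles were 99.4, 28.0 and 51.5, and here the first call stood at the end of its list. Neither region was called in any control library. The region 50 bp upstream was called in the third control library at rank 2446, and in the first and second senescent libraries at ranks 2310 and 2186.

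Further out, the Sgk1 region 91741 bp upstream was called in the first and the third senescent libraries, at ranks 3378 and 3377.5, and holds a GR core. The region 48200 bp upstream, in an intron of Platr6, was control-only, at ranks 3144.5 and 10368.5. The region 96204 bp upstream, with ranks 7132 in the third control and 4087.5 in the first senescent library, has 2 GR cores near its centre, one of them part of the longer element, which lies partly outside the called peak.

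Dusp1 encodes a phosphatase that switches off MAP kinases and is among the first genes glucocorticoids induce. Its promoter region was called in all 3 senescent libraries, at ranks 1487.5, 495.5 and 1057, and in the third control library, at rank 3347. The single control rank was a larger number than each senescent rank, but its list was the longest, and on the percentile of the own list it stood at 31.6, between 35.2 in the first and 5.05 and 20.9 in the other senescent libraries. The region 3911 bp downstream of the start site (chr17:26504349-26504746), past the 3′ end, was senescent-only, at ranks 2495.5 and 1980.5, and holds an E-box 86 bp from its centre. An intron region 1086 bp downstream was also senescent-only, at ranks 5491.5 and 4126. The longer receptor element printed for Dusp1 lies 87 bp from the centre of a peak called in the second senescent library alone, at rank 4116, and outside the bounds of that peak.

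**Figure D5:**
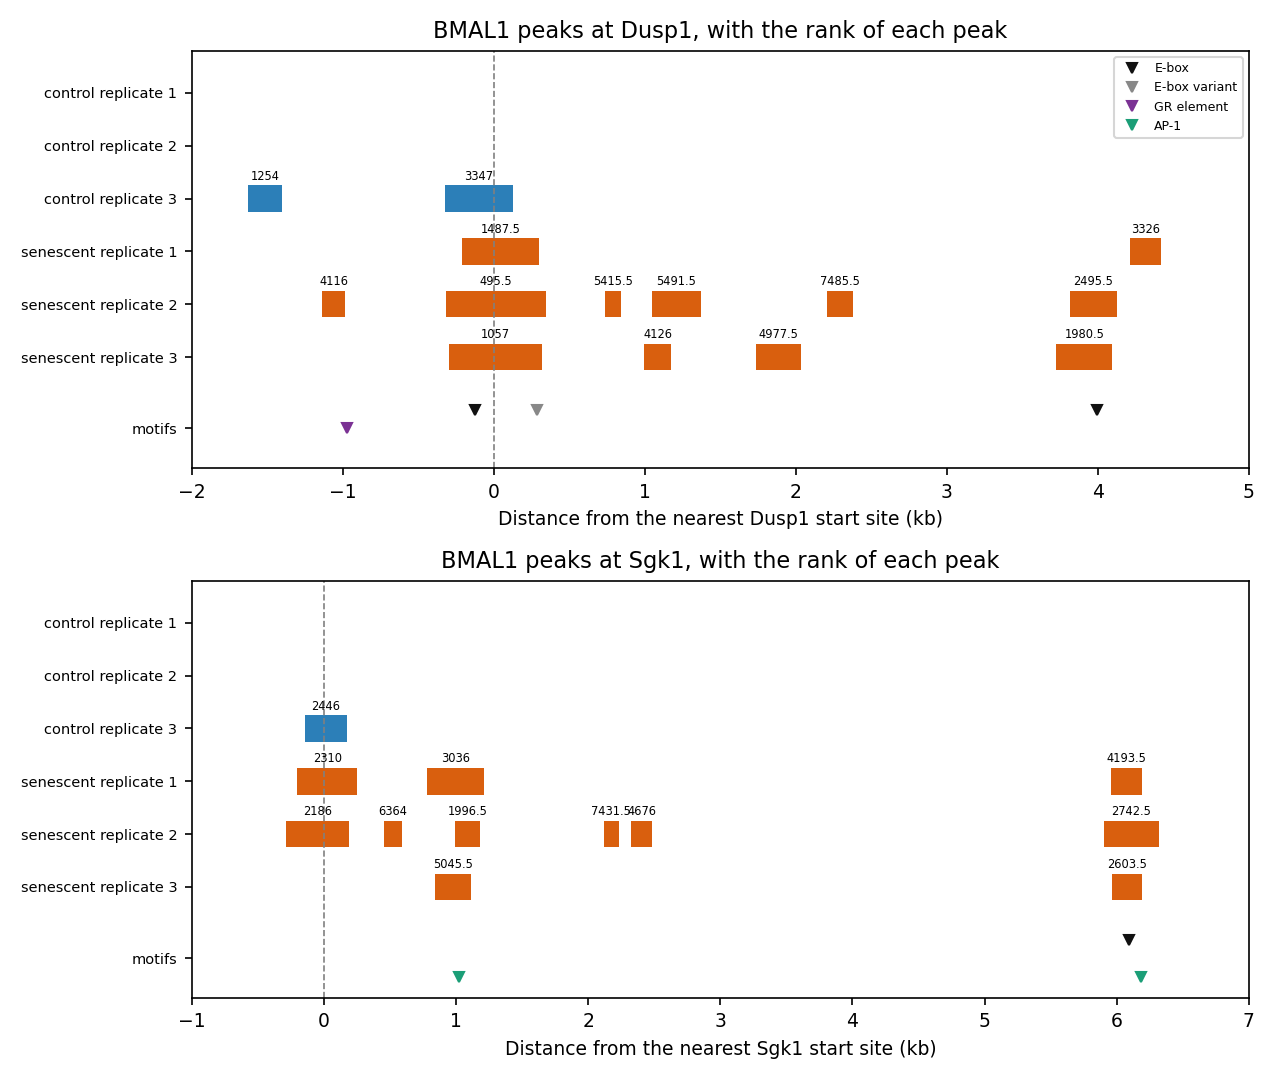
BMAL1 peaks at Dusp1 (top) and Sgk1 (bottom) by library (rows) against distance from the nearest start site (x axis, kb), drawn to their length with the rank in the own list over each, control in blue and senescent in orange, and triangles for motifs. The control peaks shown, at both promoters and upstream of Dusp1, come from the third control library, and all peaks further downstream are senescent.

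Errfi1 encodes MIG-6, an inhibitor of EGF receptor signaling, and had the most regions, 17, most of them called in a single library. Its promoter region, 152 bp upstream, was called in the first and second senescent libraries at ranks 2904.5 and 7334.5. The region 54856 bp upstream was called in 2 libraries of each group, with ranks 1024 and 1337 in control and 3752.5 and 8882 in senescent libraries, and holds an AP-1 site. Where it was called, both control ranks were better than both senescent ranks. The region 84666 bp upstream, at rank 1959 in the third senescent library alone, holds an E-box and a GR core.

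Motifs were searched on both strands within 100 bp of the centre of the best peak of each region. An E-box was found in 7 of the 59 regions, or 11.9% against 17.0% of all regions, and in windows placed 2000 bp to either side these shares were 1.69% and 2.66%. With the 2794 best peaks of each list, 6 of the 20 regions at the 9 genes held one, or 30.0% against 27.7% of all regions under the same cut. The AP-1 site (TGACTCA or TGAGTCA) was found in 5 regions, 8.47% against 16.6% of all. A GR core was found in 8 regions, 13.6% against 5.39% of all, and the flanking windows of the 59 regions held it in 8.47%, against 6.22% around all regions. With start sites of every gene type, which leaves fewer peaks to these genes, that share was 5.56%. All 8 were outside promoters, where they made up 17.0% of 47 regions against 6.67% of all such regions. The longer receptor element, which always contains the core, was found in 3 regions, 5.08% against 0.381% of all, at Klf9, Dusp1 and Sgk1. Within the bounds of the called regions, rather than near their centre, 1 of the 59 held it, the Klf9 region, which is 1.69% against 0.511%. The variant E-box was found in 5.08% and 6.12%, and the CCAAT box of NF-Y in 23.7% and 29.6%, respectively. The CRE (TGACGTCA) was found in 0 of the 59 regions near the centre and in 1.28% of all, and anywhere in the region in 2 of the 59, the promoters of Dusp1 and Errfi1, or 3.39% against 1.77% of all regions. These counts are small, and a match in these letters is no measure of binding.

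Other genes of the pathway were counted in a pair of lists. Of 8 receptor partners and enzymes of hormone handling (Fkbp4, Hsp90aa1, Hsp90ab1, Ncoa1, Ncoa2, Nrip1, Nr3c2 and Hsd11b1), 6 had a peak and 0 had one in all 6 libraries. Over all protein-coding genes these shares were 36.4% and 5.14%. In this list 0 genes had a promoter peak in at least 2 senescent and 0 control libraries, against 2.12% of all genes. The reverse was found at 0, against 0.361%. Promoter peaks were called in more senescent than control libraries at 4 of the 8 genes, against 11.7% of all genes. They were called in more control libraries at 1, against 4.25%. With peaks at any distance counted, 2 of the 8 genes, Hsp90aa1 and Nrip1, had one in at least 2 senescent and 0 control libraries. Over all genes this share was 3.42%. Nrip1, a receptor corepressor named here after its values were seen, had its peak 31177 bp downstream in all 3 senescent libraries, at ranks 1137, 1903.5 and 1071.5, and in no control library. Hsp90aa1 also had a peak in all 3, with best ranks 2225.5, 2495.5 and 1022.5. Of 22 other glucocorticoid response genes, 18 had a peak, against 36.4% of all genes, and 8 had one in all 6 libraries, against 5.14%. These 8 were Per1, Mt2, Zfp36, Klf15, Lpin1, Pik3r1, Foxo3 and Bcl2l1. In that list 2 genes, Angptl4 and Glul, had a promoter peak in at least 2 senescent and 0 control libraries, against 2.12% of all genes. The reverse was found at 0 of the 22, against 0.361% of all genes. Per1, a clock gene bound by BMAL1, had the best ranks of the list, 2, 1 and 1 in control and 2, 2 and 1 in senescent libraries. Foxo3 followed, with ranks 107, 104 and 73 in control and 134, 143 and 129 in senescent libraries, and then Bcl2l1, which encodes the survival protein BCL-XL, with 416, 666 and 370 in control and 107, 110.5 and 115 in senescent libraries.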

How the data were processed

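BMAL1-ChIP-seq peak lists of 3 control and 3 senescent MAF libraries were analysed, grouped by the sample titles. The 6 input libraries were not analysed here. The authors mapped paired reads to mm10 with the Burrows-Wheeler Aligner, removed duplicates with Picard and called peaks with MACS at a false discovery rate of 1%. Whether the inputs served as controls for the calling is not given in the sources used here. The labels and the methods name antibodies from different makers. Column 5 of the deposited lists was taken from its values to be a −log10 p- or q-value, between 2.02 and 2.12 at its lowest in each list. It was used only as a rank, with ties given their mean rank. The headers place all 6 libraries on 1 lane. Whether replicates were separate cultures or animals is not stated, so p-values measure only the spread between these libraries, and depth is unknown.

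Peak midpoints were assigned to the nearest start site of protein-coding transcripts (GENCODE release M21). Peaks overlapping by at least 1 bp were merged, and motifs were searched in the GRCm38 sequence with pysam 0.24.0. Ranks of regions called in all 6 libraries were compared as log10 rank by an exact two-sided permutation test with Benjamini-Hochberg adjustment over all such regions (Python 3.11.15, numpy 2.4.6, scipy 1.17.1). The scripts were tested on simulated peaks. Every member gene is named, as are the 3 genes closest in rank to the best-ranked member region and the 3 best-ranked other response genes. Members and gene lists were chosen with earlier results of these data known. Same-numbered replicates did not deviate together (correlations 0.0755, -0.0507 and -0.0177 over 1106 regions), so the numbers were not used as pairs. Alternatives changed the score threshold, list length, gene assignment, overlap, occupancy rule, motif window, rank scale, promoter width and libraries.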

Additional observations from a re-analysis of the deposited data

How the results depend on the processing

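Depth was unknown, and lists of 2794 to 10601 peaks limit what a missing call can show. With peaks at or under the median score of their list dropped, the senescent minus control difference in peaks at the 9 genes turned from 0.889 to -0.415 per 1000, that in genes with a peak fell to 0.333 and in promoter genes to 1.67, 3 regions were called in all 6 libraries, 1 was senescent-only and the E-box share was 22.6%, against 23.3% of all regions. With the 2794 best peaks of each list these were 0.835 per 1000, with overlapping groups, 1 for genes, 2 for promoter genes, 3 regions in all 6 libraries, 3 senescent-only and an E-box share of 30.0%, against 27.7% of all regions. Start sites of every gene type gave 0 control-only regions and a GR core share of 5.56%, and a limit of 50 kb gave 1 and 6.82%. Requiring 3 of 3 libraries left 3 senescent-only and 0 control-only regions. A motif window of 50 bp gave a GR core share of 5.08% and an E-box share of 6.78%. The shares of all regions in that narrower window were not counted, so these values have no background of their own. The GR core share was 16.1% over the median score and 20.0% with lists cut to the same length. Over all regions under the same cuts it was 5.25% and 5.21%. The cause of these changes was not tested. On the percentile of the own list the Tsc22d3 region at 31931 bp changed sign, to -0.259 percentage points, and 3 regions did not overlap between groups, all at Klf9. Of these, the region at 5424 bp had better places in the control libraries, and the promoter and intron regions had better places in the senescent libraries. Leaving out each library gave 4 to 12 senescent-only and 0 to 2 control-only regions, 1.33 to 3.83 for the difference in genes with a peak, and 0.5 to 15.5 for that in peaks per library. With the replicate number as a block, which changes the p-value but not the overlap of the groups, the Klf9 region at 5424 bp had p = 0.25 (exact sign-flip permutation, the smallest possible). All settings for promoter genes were chosen after seeing the data, and widths of 500 and 3000 bp gave differences of 3.67 and 4 genes, and leaving out each library 3.5 to 5.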
